A study of Macaca mulatta with 2 samples.

Results

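The genes described here are 6 transcription factors of effector lymphocytes, *TBX21*, *EOMES*, *ZEB2*, *PRDM1*, *HOPX* and *ID2*. They were chosen by name, with earlier results of these data known, as 6 of the 35432 genes counted. Their levels and their presence in the same cell were described in cells sorted as circulating CD4+CD8+ double-positive (DP) T cells. The cells were divided by the raw counts of *GZMB*, *GZMK*, *CX3CR1*, *TRAV10* and *CCR7* in each cell. The cells came from the peripheral blood of 1 untreated rhesus monkey aged 6 years, with CD4+ cells taken first by releasable magnetic beads and the CD8+ cells then taken from them. RNA was read from the 5' end of transcripts, antibody tags for surface CD4 and CD8 were read in a second library, and all 7923 cell barcodes are common to both. With 1 animal there is no replicate and no test, and every interval given is a 95% interval that covers counting error only. Differences between groups of cells are therefore differences within this animal.

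After filtering, 7601 cells remained, of which 7311 (96.2%) had a UMI of *CD3E*, a chain of the T cell receptor complex. The tags were not used to select cells, so a CD3E+ cell is not shown to carry both CD4 and CD8. A UMI is a molecular identifier that lets copies of 1 captured molecule be counted once. The CD3E+ cells had a median of 3656 UMIs (quartiles 3001 and 4720), so a factor with few molecules per cell is often missed. Levels are given as CPM, the UMIs of a gene over a set of cells for every 1000000 UMIs of that set. Shares of cells with a UMI are given after thinning, in which 2000 UMIs were drawn at random from each cell, and 6935 CD3E+ cells were deep enough for this. Doublets, droplets holding more than 1 cell, were not looked for beyond a limit of 4000 genes per barcode. A CD4+ and a CD8+ cell that stayed together through the sort could share a droplet. The part of doublets in the results was not tested.

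T-bet, encoded by *TBX21*, and Eomes are related T-box factors that activate genes of cytotoxicity and interferon-γ in T cells and NK cells. ZEB2 is a zinc-finger factor known to act with T-bet in the terminal differentiation of cytotoxic T cells, and Blimp-1, encoded by *PRDM1*, is a repressor of genes of resting lymphocytes. *HOPX* encodes a small homeodomain protein found in effector and memory T cells, and Id2 binds E proteins and keeps them from DNA. Of the genes used to divide the cells, *GZMB* encodes the killing protease granzyme B, *GZMK* granzyme K, *CX3CR1* a chemokine receptor of effector cells in blood, *CCR7* the lymph node homing receptor of naive and central memory cells, and *TRAV10* a variable segment of the T cell receptor α chain.

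The 6 genes lie apart in the Mmul_10 genome, according to the RefSeq annotation matched by symbol. *TBX21* is at chr16:49068500-49083990 on the minus strand, *EOMES* at chr2:20018480-20025222 on the plus strand, *ZEB2* at chr12:31537989-31670405 on the minus strand, *PRDM1* at chr4:67095643-67119700 on the minus strand, *HOPX* at chr5:76928015-76962762 on the plus strand and *ID2* at chr13:100084591-100087096 on the minus strand. Below are the 250 bases before the annotated start of 4 of them, read 5' to 3' in the direction of the gene: *TBX21* and *ZEB2*, whose levels went together across cell groups, *EOMES*, which went with *GZMK*, and *HOPX*. They come from chr16:49083991-49084240, chr12:31670406-31670655, chr2:20018230-20018479 and chr5:76927765-76928014. Capitals mark the matches of the motifs searched.
TBX21: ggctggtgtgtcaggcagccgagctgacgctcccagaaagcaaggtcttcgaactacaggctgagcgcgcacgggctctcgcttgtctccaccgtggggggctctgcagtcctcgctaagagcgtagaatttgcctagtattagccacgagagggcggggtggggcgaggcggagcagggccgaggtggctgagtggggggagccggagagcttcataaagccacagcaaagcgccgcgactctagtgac
ZEB2: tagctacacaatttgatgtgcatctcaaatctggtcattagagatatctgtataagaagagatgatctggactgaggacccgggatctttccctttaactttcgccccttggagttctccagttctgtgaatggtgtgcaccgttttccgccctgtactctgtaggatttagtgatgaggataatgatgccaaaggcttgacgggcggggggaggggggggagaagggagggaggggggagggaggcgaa
EOMES: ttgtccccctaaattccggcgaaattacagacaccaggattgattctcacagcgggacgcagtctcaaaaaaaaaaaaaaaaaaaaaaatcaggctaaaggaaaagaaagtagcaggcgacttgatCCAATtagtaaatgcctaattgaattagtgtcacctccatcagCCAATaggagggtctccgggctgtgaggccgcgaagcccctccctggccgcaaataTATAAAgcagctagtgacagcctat
HOPX: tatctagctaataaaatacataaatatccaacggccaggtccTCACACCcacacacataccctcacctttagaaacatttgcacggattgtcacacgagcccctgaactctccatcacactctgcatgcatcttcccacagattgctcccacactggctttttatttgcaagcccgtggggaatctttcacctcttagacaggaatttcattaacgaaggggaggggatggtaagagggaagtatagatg
The motifs were searched on both strands: the T-box half-site GGTGTGA, the RUNX motif TGTGGT, the ETS motif CCGGAAG, the ZEB E-box CAGGTG, the AP-1 motif TGACTCA, and the promoter elements CCAAT and TATAAA, the last 2 added after the sequences had been seen. In *HOPX* the capitals are a T-box half-site on the opposite strand, TCACACC, whose first base is 208 bases before the start, and 3.59% of the 20728 windows of the same length before protein-coding genes outside the Y chromosome and mitochondrial genome hold this motif. In *EOMES* they are CCAAT at 124 and 81 bases and TATAAA at 25 bases before the start, and 31.0% and 9.83% of all windows hold these. No motif matched in *TBX21* or *ZEB2*, the window of *PRDM1* held none either, and that of *ID2* held only CCAAT. A match is no evidence of binding, and the start used in these cells was not measured.

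Over all CD3E+ cells the 6 factors differed widely in UMIs. *ID2* had 11617 UMIs (386 CPM, interval 379 to 393) and *HOPX* 5875 (195 CPM, 190 to 200), followed by *ZEB2* with 2539 (84.3 CPM, 81.1 to 87.7). *PRDM1* had 1205 (40.02 CPM, 37.8 to 42.3), *TBX21* 828 (27.5 CPM, 25.7 to 29.4) and *EOMES* 498 (16.5 CPM, 15.1 to 18.1). No neighbouring pair in this order had overlapping intervals, but UMIs of a 5' library count transcripts as captured and are not divided by gene length, so the order is one of captured molecules. In thinned cells a UMI of *ID2* was found in 47.9%, of *HOPX* in 28.6%, of *ZEB2* in 14.95%, of *PRDM1* in 7.77%, of *TBX21* in 5.78% and of *EOMES* in 3.11%. Cells with a *TBX21* UMI had 1.13 UMIs of it on average and never more than 3, so its absence from a cell says little.

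Background was read in 86 cells lacking CD3 gene UMIs that held 3 or more from B cell genes (B gene cells), whose median depth was 4137.5 UMIs. Neither *EOMES*, *PRDM1* nor *HOPX* had a UMI in them (0 of 86 cells, which allows a share of up to 3.49% when the limit is set at 3 counts), and *ID2* had a UMI in 1 (1.16%). *TBX21* had a UMI in 3 (3.49%, interval 0.725 to 9.86), against 10.1% of the unthinned CD3E+ cells. *ZEB2* was found in 28 of the B gene cells (32.6%, 22.8 to 43.5), an interval that includes the 22.9% of the CD3E+ cells, with up to 4 UMIs per cell, so these cells do not give a background for *ZEB2*. *GZMB* had a UMI in 7 of the 86 cells (8.14%), and 1 of the cells held 147 of their 263 *GZMB* UMIs.

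The first comparison asks how the factors vary with the granzyme B content of a cell. Of the CD3E+ cells, 4038 had no *GZMB* UMI, 503 had 1 or 2, 1115 had 3 to 9 and 1655 had 10 or more, and their median depths were 4048.5, 3356, 3158 and 3416 UMIs. *TBX21*, *ZEB2*, *PRDM1*, *HOPX* and *ID2* were all higher in cells with more *GZMB*, and *EOMES* was not. *ZEB2* differed most of the 6, with 10.4 CPM in cells without *GZMB* and 80.0, 177 and 223 CPM in the following strata, a 21.4-fold difference between the ends (18.4 to 25.1). *TBX21* had 6.91, 31.5, 56.3 and 62.8 CPM, a 9.09-fold difference (7.41 to 11.2). *HOPX* had 101, 218, 317 and 361 CPM (3.58-fold, 3.37 to 3.81), *PRDM1* 22.2, 49.1, 60.8 and 71.4 CPM (3.22-fold, 2.81 to 3.68) and *ID2* 228, 400, 555 and 692 CPM (3.04-fold, 2.91 to 3.17). Each of these 5 was already above its level in *GZMB*-negative cells at 1 or 2 *GZMB* UMIs, where *ZEB2* was 7.70-fold higher (6.16 to 9.61).

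*EOMES* had the opposite order at the upper end. Its level was 16.8 CPM without *GZMB*, 28.8 CPM at 1 or 2 UMIs, 19.5 CPM at 3 to 9 and 10.5 CPM at 10 or more, so that cells rich in *GZMB* held 0.626 times the level of cells without it (0.476 to 0.813). As a log2 ratio of CPM + 10, which is used below because it damps low levels, *GZMB* 10 or more over *GZMB* 0 was 3.51 for *ZEB2* (3.38 to 3.64), 2.11 for *TBX21* (1.95 to 2.25), 1.74 for *HOPX* (1.66 to 1.83), 1.56 for *ID2* (1.503 to 1.62), 1.34 for *PRDM1* (1.19 to 1.49) and -0.39 for *EOMES* (-0.59 to -0.18). Of the 6, 5 had a log2 ratio of at least 1, against 2.91% of the 9735 genes compared, and 0 had a ratio of at most -1, against 1.27%. The median over all genes was 0.12. With 10 CPM added, a gene under 10 CPM in both groups cannot reach 1 or -1, and such genes are among those compared. Since the 6 were chosen with earlier results of these data known, the shares over all genes are given for scale only, here and below.

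Within the top stratum no further difference stood out. *ZEB2* had 229 CPM (214 to 243) in the 1118 cells with 10 to 19 *GZMB* UMIs and 214 CPM (195 to 234) in the 501 cells with 20 to 39, and *TBX21* had 62.3 (55.0 to 70.3) and 64.6 CPM (54.5 to 75.9). *HOPX* had 358 and 367 CPM and *ID2* 699 and 686 CPM in the same groups. All 4 pairs of intervals overlap, and so do those of the 36 cells with 40 or more *GZMB* UMIs, where *ZEB2* had 197 CPM (141 to 269).

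**Figure D1:**
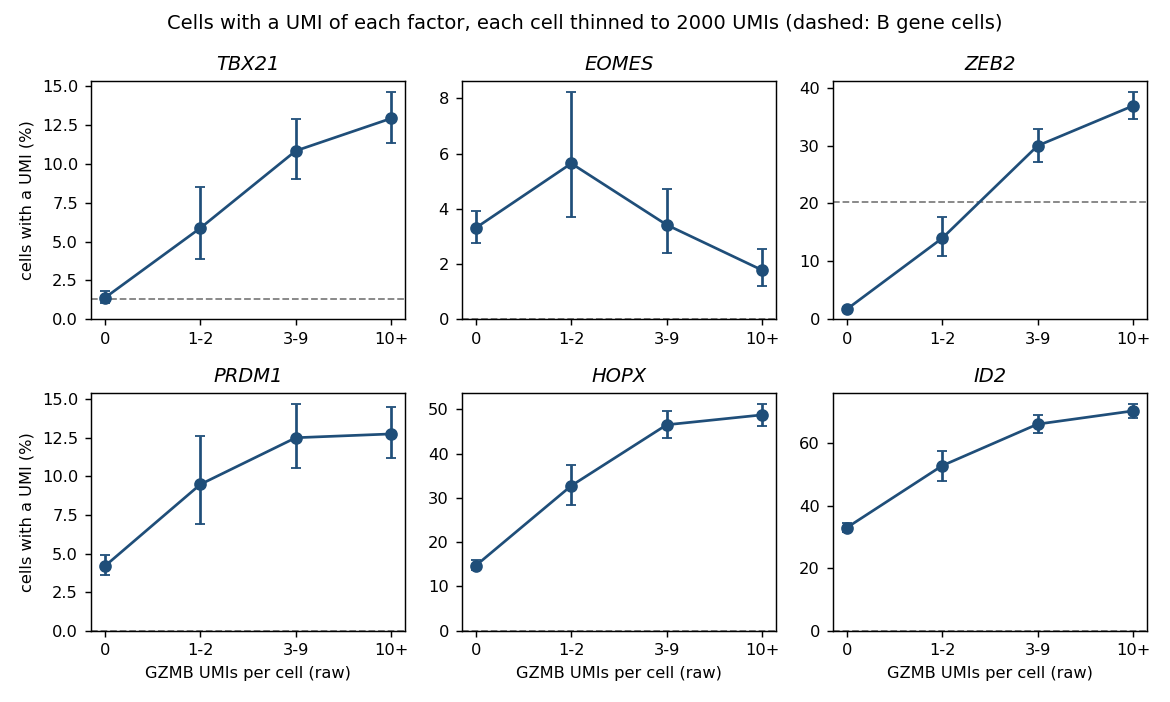
Share of CD3E+ cells with a UMI of each factor (%) by raw GZMB UMIs per cell, after thinning each cell to 2000 UMIs; bars are exact 95% binomial intervals and the dashed line is the share in thinned B gene cells. ZEB2 goes from 1.72% to 36.9% and TBX21 from 1.38% to 12.9%, while EOMES peaks at 5.64% in cells with 1 or 2 GZMB UMIs.

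The thinned shares show the same at equal depth. *ZEB2* was detected in 1.72% of cells without *GZMB* (1.33 to 2.18) and in 36.9% of those with 10 or more UMIs (34.5 to 39.3). *TBX21* was detected in 1.38% (1.04 to 1.80) and 12.9% (11.3 to 14.7), and the lower value is close to the 1.27% of the 79 thinned B gene cells. That is 1 cell, too few to set a floor, so this share was not shown to differ from background. *ID2* was found in 33.0% and 70.3%, *HOPX* in 14.7% and 48.7% and *PRDM1* in 4.20% and 12.7%. *EOMES* was found in 3.31% (2.77 to 3.93) and 1.78% (1.19 to 2.54).

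Markers of other cell types also moved with *GZMB*. The 6 NK markers summed to 88.6 CPM in cells without *GZMB* and 308 CPM in cells with 10 or more, nearly all of the latter *KLRF1* (1197 UMIs) and *TYROBP* (828 UMIs). In cells without *GZMB*, *KLRF1* had 210 UMIs and *TYROBP* 1323. Unthinned, *KLRF1* was found in 47.1% of cells with 10 or more and 3.96% without, and *TYROBP* in 22.7% and 12.4%. The other 4 had few UMIs in either group. With 10 or more and without *GZMB*, *FCER1G* had 40 and 2 UMIs, *FCGR3* 6 and 1, *NCR1* 4 and 10 and *NCAM1* 0 and 5. These are raw counts over 1655 and 4038 cells. A UMI of the red cell genes was found in 2.11% of cells without *GZMB* and in 34.5% of cells with 10 or more. In the latter it was almost only *HBA*, with 875 UMIs in 568 cells, beside 2 UMIs of *HBB*, whereas the cells without *GZMB* held 3358 UMIs of *HBA* in 81 cells and 2657 of *HBB* in 8. Without *HBB*, these *HBA* counts do not show red cells or their RNA, and whether reads of other transcripts were counted as *HBA* was not tested. The 6 B cell markers summed to 76.4 CPM without *GZMB*, 135 and 82.1 CPM in the middle strata and 43.7 CPM at 10 or more, the 6 monocyte markers to 9.08 and 12.8 CPM at the ends, and the 3 cycling markers to 13.2 and 33.7 CPM. The part of the NK markers in the *GZMB* differences was not tested. Without the CD3E+ cells that had any B, monocyte, platelet or red cell marker UMI, *HBA* included, 5740 cells remained, 1009 of them with 10 or more *GZMB* UMIs, and the log2 ratios were 3.64 for *ZEB2*, 2.10 for *TBX21*, 1.77 for *HOPX*, 1.56 for *ID2*, 1.44 for *PRDM1* and -0.30 for *EOMES*.

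Granzyme K divided the factors in another way. There were 5890 CD3E+ cells without a *GZMK* UMI, 617 with 1 or 2 and 804 with 3 or more. *EOMES* had 3.54 CPM (2.83 to 4.37), 28.7 CPM (22.3 to 36.2) and 102 CPM (91.7 to 114) in these, and was detected in 0.735%, 4.49% and 19.3% of thinned cells. Its log2 ratio of *GZMK* 3 or more over *GZMK* 0 was 3.05 (2.91 to 3.18). It was the 1 factor of the 6 with a ratio of at least 1, against 0.414% of 9904 genes, and none had a ratio of at most -1, against 0.293%. The other 5 ran from -0.09 for *HOPX* (-0.21 to 0.03) to 0.63 for *PRDM1* (0.43 to 0.81), with *TBX21* at 0.05 (-0.18 to 0.29), *ZEB2* at 0.09 (-0.07 to 0.25) and *ID2* at 0.34 (0.27 to 0.42). Without the cells that had a UMI of *KLRF1*, *NCR1*, *FCGR3*, *FCER1G* or *NCAM1*, the *EOMES* ratio was 3.34 (3.18 to 3.47).

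*TBX21*, *ZEB2*, *HOPX* and *ID2* were higher in cells with 1 or 2 *GZMK* UMIs than at either end. *ZEB2* had 78.8, 139 and 84.6 CPM over the 3 *GZMK* strata and *HOPX* 188, 287 and 176 CPM. *TBX21* had 25.6, 47.5 and 26.9 CPM. This order over *GZMK* mixes cells of different *GZMB* content. Cells without *GZMB* were 3487 of the 5890 without *GZMK* and 366 of the 804 with 3 or more *GZMK* UMIs. In turn, 36.2% of cells with 1 or 2 *GZMB* UMIs had *GZMK*, against 13.6% of cells without *GZMB* and 22.7% of those with 10 or more.

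When both granzymes were used to divide the cells, *EOMES* was higher with 3 or more *GZMK* UMIs in every *GZMB* stratum. Among cells with 3 or more *GZMK* UMIs, it had 151 CPM (132 to 173) in the 366 cells without *GZMB*, then 95.7 CPM (68.4 to 130) and 72.4 CPM (53.0 to 96.5), and 46.3 CPM (33.1 to 63.1) in the 171 cells with 10 or more *GZMB* UMIs. The log2 ratio between the ends was -1.52 (-1.95 to -1.09). Among cells without *GZMK* it stayed between 2.86 and 6.88 CPM in all 4 *GZMB* strata, and the ratio of the ends was 0.16 (-0.05 to 0.38). The lower *EOMES* level of *GZMB*-rich cells was thus seen where *GZMK* was present.

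*ZEB2* and *TBX21* were higher with *GZMB* both with and without *GZMK*. Within *GZMK* 3 or more, the log2 ratio of *GZMB* 10 or more over 0 was 2.29 for *ZEB2* (1.86 to 2.71), 1.49 for *TBX21* (0.93 to 1.99), 1.28 for *HOPX* (0.99 to 1.56), 1.08 for *ID2* (0.90 to 1.25) and 0.60 for *PRDM1* (0.16 to 1.04). Within *GZMK* 0 it was 3.75, 2.25, 1.89, 1.67 and 1.49 in the same order. Among *GZMB*-rich cells, those with 3 or more *GZMK* UMIs had less *ZEB2* than those without *GZMK* (159 against 233 CPM, log2 ratio -0.53, -0.78 to -0.29) and less *HOPX* (273 against 377 CPM, -0.45, -0.64 to -0.26), whereas *ID2* (682 against 696 CPM) and *PRDM1* (75.3 against 71.3 CPM) had overlapping intervals. The *GZMK*-rich cells of this stratum were deeper, with a median of 4245 UMIs against 3341.5.

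Cells without *GZMB* but with *GZMK* had their own combination. In the 366 cells with 3 or more *GZMK* and 0 *GZMB* UMIs, *EOMES* was detected in 26.8% of thinned cells, *PRDM1* in 9.22%, *ZEB2* in 4.32% and *TBX21* in 1.73%. Against cells with neither granzyme, *PRDM1* was higher by a log2 ratio of 0.96 (0.64 to 1.27), *ZEB2* by 0.93 (0.56 to 1.30), *ID2* by 0.57 (0.43 to 0.71) and *TBX21* by 0.52 (0.12 to 0.93). *HOPX* had 107 against 94.6 CPM, and the interval of its ratio includes 0 (-0.06 to 0.38).

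**Figure D2:**
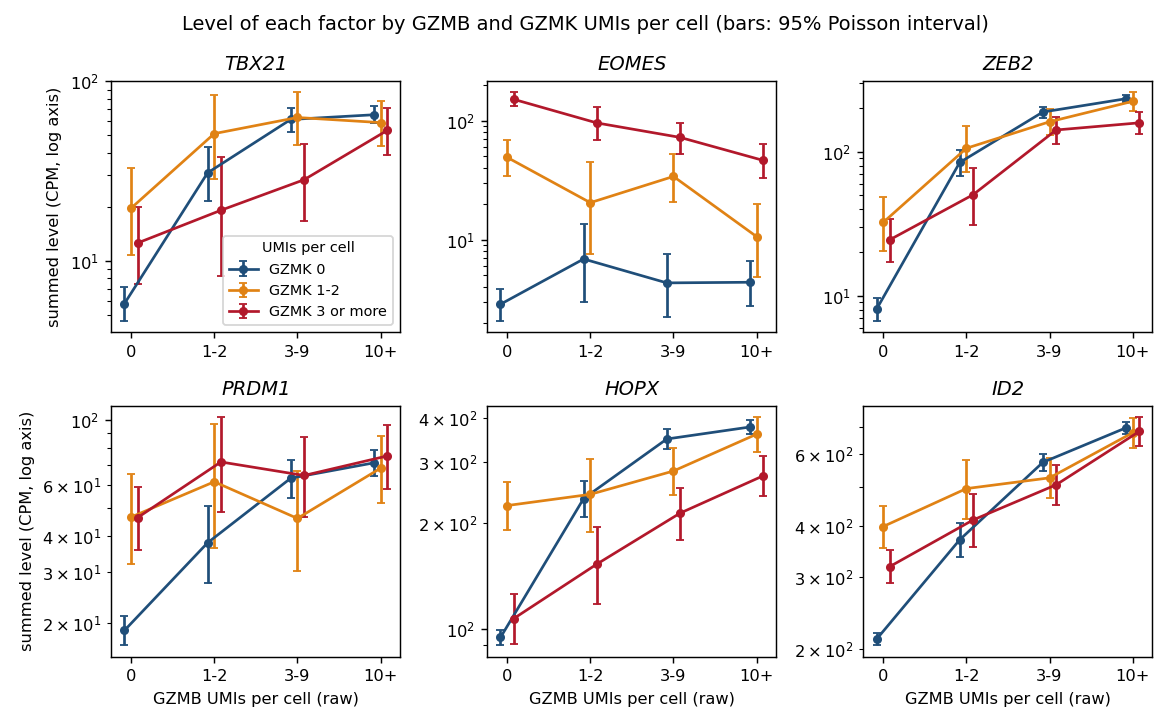
Summed level of each factor (CPM, log axis) by raw GZMB UMIs per cell, in cells with 0, 1 or 2, and 3 or more GZMK UMIs; bars are exact 95% Poisson intervals. EOMES separates by GZMK and goes from 151 to 46.3 CPM across GZMB strata in GZMK-rich cells, while ZEB2 goes up with GZMB at every GZMK level.

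*CX3CR1* followed *GZMB* closely: a UMI was found in 0.916% of cells without *GZMB*, 13.7% and 33.3% of the middle strata and 47.9% of cells with 10 or more. Over all CD3E+ cells, *ZEB2* had 56.7 CPM in 6042 cells without *CX3CR1*, 197 CPM in 841 cells with 1 UMI and 260 CPM in 428 cells with 2 or more. The log2 ratio of 2 or more over 0 was 2.02 for *ZEB2* (1.87 to 2.16), 1.31 for *TBX21* (1.06 to 1.55), 1.01 for *HOPX* (0.90 to 1.13), 0.92 for *PRDM1* (0.68 to 1.15), 0.91 for *ID2* (0.83 to 1.002) and -1.05 for *EOMES* (-1.31 to -0.67). So 3 of the 6 had a ratio of at least 1, against 1.46% of 9867 genes, and 1 of at most -1, against 0.993%.

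In cells with 3 or more *GZMB* UMIs, *ZEB2* had 226 CPM with *CX3CR1* (1163 cells) and 190 CPM without (1607 cells), a log2 ratio of 0.24 (0.12 to 0.36). *TBX21* had 65.2 and 56.6 CPM (0.18, -0.02 to 0.37), and the ratios of *HOPX* (-0.07), *ID2* (0.04) and *PRDM1* (0.04) had intervals that include 0. *EOMES* had 11.4 and 15.9 CPM (-0.28, -0.55 to 0.01). At 10 or more *GZMB* UMIs, *EOMES* had 4.26 CPM in 314 cells with 2 or more *CX3CR1* UMIs (6 UMIs of *EOMES*) and 12.6 CPM in 863 cells without (-0.66, -1.03 to -0.16), and *ZEB2* 260.1 and 216 CPM (0.26, 0.08 to 0.43). In cells without *GZMB*, only 37 had a *CX3CR1* UMI. Those with 2 or more were left out of the next comparison, which used the 30 cells with 1 *CX3CR1* UMI. Against the 4001 cells with neither, the log2 ratio in these was 1.95 for *TBX21* (0.84 to 2.94, 6 UMIs), 1.88 for *ZEB2* (0.83 to 2.82, 7 UMIs) and 1.18 for *ID2* (0.78 to 1.54, 58 UMIs), and the intervals of the other 3 include 0. *GZMB* 10 or more over *GZMB* 0 in cells with neither *CX3CR1* nor *GZMK* UMIs was 3.75 for *ZEB2* (3.59 to 3.90), 2.20 for *TBX21* (1.98 to 2.41), 1.94 for *HOPX* (1.82 to 2.05), 1.64 for *ID2* (1.56 to 1.72) and 1.63 for *PRDM1* (1.41 to 1.84). For *EOMES* it was 0.22 (-0.06 to 0.53). *CX3CR1* has few UMIs per cell, so cells counted as without it can hold its transcript.

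*CCR7* separated the factors in the other direction. Over 5148 cells without, 1028 with 1 and 1135 with 2 or more *CCR7* UMIs, *HOPX* had 269, 70.7 and 51.2 CPM and *ZEB2* 122, 15.3 and 14.96 CPM. The log2 ratio of 2 or more over 0 was -2.41 for *ZEB2* (-2.59 to -2.21), -2.19 for *HOPX* (-2.33 to -2.05), -1.36 for *TBX21* (-1.55 to -1.14), -1.32 for *PRDM1* (-1.52 to -1.12) and -1.24 for *ID2* (-1.32 to -1.15). Thus 5 of the 6 had a ratio of at most -1, against 1.47% of 9775 genes, and 0 of at least 1, against 0.501%. *EOMES* had 15.8, 14.7 and 20.6 CPM, and its ratio was 0.25 (0.04 to 0.45).

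Since 47.0% of cells without *GZMB* had *CCR7* but 5.86% of cells with 10 or more, the comparison was repeated without *GZMB*. There *HOPX* differed most, with 164 CPM in 2140 cells without *CCR7*, 49.4 CPM in 894 cells with 1 UMI and 29.5 CPM in 1004 cells with 2 or more (log2 ratio of the ends -2.14, -2.33 to -1.95). *PRDM1* followed with -0.89 (-1.13 to -0.64), *ZEB2* with -0.86 (-1.08 to -0.60), *ID2* with -0.65 (-0.75 to -0.54) and *TBX21* with -0.37 (-0.61 to -0.10). For *EOMES* the interval of the ratio includes 0 (0.19, -0.05 to 0.44). The 1004 cells with 2 or more *CCR7* UMIs held 100 *EOMES* UMIs, and the 876 of them without *GZMK* held 6. Within cells lacking *CCR7*, the ratio of *GZMB* 10 or more over 0 was still 3.28 for *ZEB2* (3.11 to 3.44) and 1.96 for *TBX21* (1.76 to 2.15), but 1.17 for *HOPX* (1.07 to 1.26), against 1.74 over all cells. In the 876 cells with 2 or more *CCR7* UMIs and neither granzyme, *EOMES* had 1.39 CPM, *ZEB2* 2.78, *HOPX* 28.2 and *ID2* 163 CPM, and *ID2* was detected in 25.3% of the thinned cells, *HOPX* in 4.23% and *ZEB2* in 0.470%.

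The few cells with both *GZMB* and *CCR7* had lower levels of the 5 factors other than *EOMES*. Among cells with 10 or more *GZMB* UMIs, *ZEB2* had 242 CPM in 1558 cells without *CCR7*, 103 CPM in 44 cells with 1 UMI and 64.3 CPM in 53 cells with 2 or more. These last 2 groups had median depths of 7483.5 and 8180 UMIs, against 3358 in the first, and the part of doublets in them was not tested.

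*TRAV10* marked 247 CD3E+ cells, 43 with 1 UMI and 204 with 2 or more. For 2 or more against 0 UMIs, 0 of the 6 factors had a log2 ratio of at least 1 or at most -1, against 0.24% and 0.55% of 10004 genes. *HOPX* was higher (284 against 193 CPM, log2 ratio 0.53, 0.35 to 0.71) and *ID2* slightly so (432 against 385 CPM, 0.16, 0.01 to 0.31), and the intervals of the other 4 include 0. The cells with *TRAV10* were spread over all *GZMB* strata, with 130, 33, 47 and 37 cells.

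The *TRAV10* cells were also compared with the others at a given *GZMB* content. Without *GZMB*, *HOPX* had 151 CPM with *TRAV10* and 99.3 CPM without (0.56, 0.25 to 0.86), *ID2* 333 and 224 CPM (0.55, 0.34 to 0.76), *ZEB2* 23.4 and 9.97 CPM (0.74, 0.16 to 1.33) and *TBX21* 16.2 and 6.61 CPM (0.66, 0.05 to 1.30). The counts behind the last 2 were 13 and 9 UMIs. *PRDM1* had 9.003 and 22.6 CPM (-0.78, -1.34 to -0.07), from 5 UMIs in the *TRAV10* cells. At 1 or 2 *GZMB* UMIs, *HOPX* had a ratio of 0.60 (0.15 to 1.04) in the 33 cells with *TRAV10*, and the intervals of the other 5 include 0. At 3 to 9 *GZMB* UMIs, *ZEB2* had 67.4 CPM in the 47 cells with *TRAV10* (14 UMIs) and 183 CPM in the others (-1.32, -2.05 to -0.64), and *ID2* 443 and 561 CPM (-0.34, -0.65 to -0.04). At 10 or more *GZMB* UMIs the intervals of all 6 ratios include 0, with *ZEB2* at 228 and 222 CPM.

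Next, the 15 pairs of factors were examined for presence in the same thinned cell. Over all CD3E+ cells, 10 of the 15 pairs were found together more often than the product of their single shares, with the interval of the joint share above the product. *ZEB2* was found in 31.2% of cells with *TBX21* (26.7 to 36.0) and in 14.0% of cells without (13.1 to 14.8), and *ID2* in 62.4% of cells with *HOPX* and 42.1% of cells without. These 10 are all the pairs without *EOMES*. Of the 5 pairs with *EOMES*, *TBX21* and *EOMES* shared 5 cells, 0.0721% (0.0234 to 0.168) where the product was 0.180%, and the other 4 had intervals that include the product.

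Among cells with *GZMB* fewer pairs had an interval that excluded the product. No pair did so at 3 to 9 or at 10 or more *GZMB* UMIs, and 1 lay above it at 1 or 2. These strata hold 1024, 1632 and 443 thinned cells, against 3836 without *GZMB*. They also differ in detection: *ZEB2* and *HOPX* shared 293 cells at 10 or more *GZMB* UMIs and 29 cells without *GZMB*. The counts of pairs are thus not at equal resolution, and cell number alone does not rank the strata. That joint share was 17.95% (16.1 to 19.9) at 10 or more, with a product of 17.97%. The product is taken as fixed, so this call can miss pairs whose shares with and without 1 gene differ. An interval that includes the product does not show independence. At 10 or more, *HOPX* was found in 48.7% of cells with *ZEB2* (44.6 to 52.7) and 48.7% of cells without (45.6 to 51.8), and *ID2* in 70.8% and 70.1%. *ID2* was found in 76.8% of cells with *TBX21* (70.5 to 82.3) and 69.4% of cells without (66.9 to 71.8). With and without *HOPX* it was found in 72.5% and 68.3%. *ZEB2* was found in 39.8% of cells with *TBX21* (33.1 to 46.8) and 36.5% of cells without (33.9 to 39.02), a difference of 3.36 percentage points (-3.78 to 10.7). Without thinning the difference was 1.97 points (-3.93 to 7.78). Under the alternatives it ran from -2.16 points at 1500 UMIs to 9.46 points without cells bearing other markers. Its interval excluded 0 in 2 alternatives: 8.32 points with any CD3 gene in place of *CD3E* (0.91 to 15.9) and 7.90 points at 3000 UMIs (0.18 to 15.5). Each thinned alternative drew the UMIs of all cells anew, so these shifts include the random draw, whose part was not tested.

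In cells without *GZMB*, 6 pairs lay above the product and none below. *ZEB2* and *HOPX* were found together in 0.756% of these cells (0.507 to 1.08), against a product of 0.253%, so that 43.9% of the 66 cells with *ZEB2* held *HOPX*, against 14.2% of the cells without *ZEB2*. *EOMES* was found in 13.6% of the cells with *ZEB2* (6.43 to 24.3) and 3.13% of the cells without. *PRDM1* and *HOPX* shared 1.17% of cells against a product of 0.618%, and *HOPX* and *ID2* 6.80% against 4.86%.

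In the 774 thinned cells with 3 or more *GZMK* UMIs, *HOPX* was less frequent where *EOMES* was detected. It was found in 13.4% of the 149 cells with *EOMES* (8.40 to 19.97) and in 26.9% of the cells without (23.4 to 30.5), and the joint share of 2.58% (1.58 to 3.96) lay below the product of 4.68%. Of the other pairs, *TBX21* with *HOPX* and *HOPX* with *ID2* lay above it. *TBX21* and *EOMES* shared 4 cells, 0.517% (0.141 to 1.32) against a product of 1.12%, which is within the interval. Among those of them that lacked *GZMB*, *HOPX* was found in 8.60% of the 93 cells with *EOMES* (3.79 to 16.2) and 19.3% of the others, with a joint interval that includes the product.

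**Figure D3:**
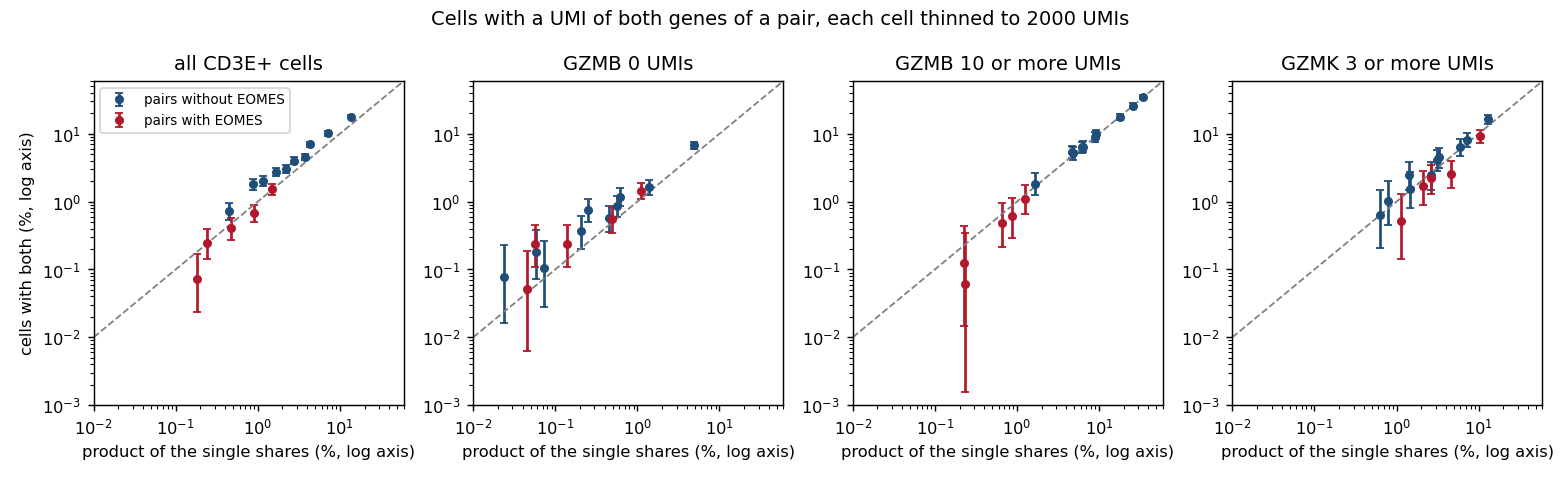
Share of thinned CD3E+ cells with a UMI of both genes of a pair (%, log axis) against the product of their single shares (%, log axis), for the 15 pairs in 4 groups of cells; bars are exact 95% binomial intervals and the dashed line marks equality. The 10 pairs without EOMES lie above the line with their intervals over all CD3E+ cells. In cells with 10 or more GZMB UMIs the interval of every pair includes the product.

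The number of factors found in 1 thinned cell followed the same order. None of the 6 was found in 54.7% of cells without *GZMB* and in 25.1%, 9.28% and 8.52% of the following strata. At least 3 were found in 1.56% (1.20 to 2.01), 9.26% (6.72 to 12.3), 18.6% (16.2 to 21.1) and 24.4% (22.4 to 26.6). Only 5 of 6935 cells held 5 of the factors and none held all 6. At 3 or more *GZMB* UMIs the share with at least 3 changed little with *CX3CR1*: it was 24.0% (21.6 to 26.7) in cells with *CX3CR1* and 20.8% (18.8 to 22.9) in those without. The share depends on depth, and without thinning it was 54.0% at 10 or more *GZMB* UMIs.

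**Figure D4:**
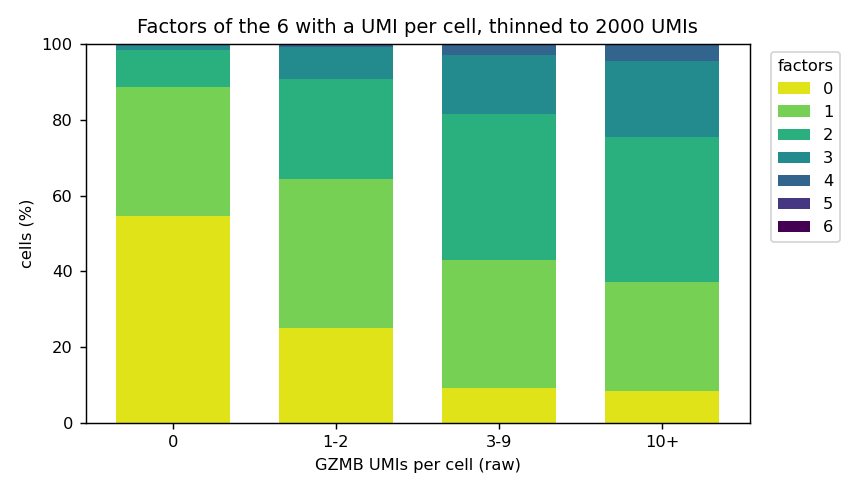
Share of thinned CD3E+ cells (%) with a UMI of 0 to 6 of the factors, by raw GZMB UMIs per cell. Cells with none of the 6 make up 54.7% of those without GZMB and 8.52% of those with 10 or more GZMB UMIs.

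Other genes of the same programs were read beside the 6 factors, in lists chosen with earlier results of these data known. Of 12 other factors associated with effector cells, 11 were compared between *GZMB* 10 or more and *GZMB* 0. Of these, 3 had a log2 ratio of at least 1, against 2.91% of all genes compared. They were *RUNX3*, a Runt factor of cytotoxic cells, at 2.09 (1.98 to 2.21), and *BHLHE40*, a basic helix-loop-helix factor, at 1.62 (1.53 to 1.71). The third was *IRF8*, an interferon regulatory factor, at 1.22 (1.05 to 1.37). None of the 11 had a ratio of at most -1, against 1.27% of all genes. Their median was 0.65, against 1.65 for the 6 factors and 0.12 for all genes. *ZNF683*, the gene of the Blimp-1 homologue Hobit, could not be matched by symbol. *IKZF3* (0.92) and *TOX* (0.91) came next, and *IRF4* (0.16, -0.05 to 0.36) and *KLF6* (0.15) were lowest. Between *GZMK* 3 or more and 0 their median was 0.29. None of the 11 passed 1 in either direction there, but only 0.414% of all genes had a ratio of at least 1 and 0.293% of at most -1.

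Of the 13 factors of naive and memory cells, 11 had enough UMIs. The 3 with a ratio of at most -1 were *LEF1* (160 against 22.6 CPM, -2.38), *TCF7* (120 against 20.6 CPM, -2.08) and the chromatin organiser *SATB1* (-1.76). Only *KLF3* had a ratio of at least 1 (1.11, 1.04 to 1.19). *KLF7* (14.1 against 2.52 CPM, -0.94) and *BACH2* (7.14 against 1.04 CPM, -0.63) were lower but did not pass -1. At its level *BACH2* could not reach -1 with 10 CPM added. Of all genes compared, 1.27% had a ratio of at most -1 and 2.91% of at least 1. The median of the list was -0.63. In the *GZMK* comparison *LEF1* was again lower (-1.69, -1.91 to -1.47), but *TCF7* was at -0.47 (-0.66 to -0.29) and the median of the 12 compared at -0.19.

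Of the 20 effector output genes, 16 were compared and 12 had a ratio of at least 1, against 2.91% of all genes. None had a ratio of at most -1, against 1.27%, and the median of the list was 2.12. The chemokine gene *CCL5* had 63.1 and 746 CPM (3.37), the granule gene *NKG7* 209 and 2087 CPM (3.26), and *KLRD1*, a lectin-like receptor, 15.4 and 218 CPM (3.17). *ADGRG1*, an adhesion receptor of cytotoxic cells, had 0.7996 and 77.7 CPM (3.02, 2.93 to 3.09), and *PRF1*, the pore protein perforin, 19.5 and 172 CPM (2.62). *CXCR3*, a chemokine receptor known as a T-bet target, was at -0.05 (-0.21 to 0.11). Between *GZMK* 3 or more and 0 the order changed: *GZMM* (1.65), *CTSW* (1.51), *IL2RB* (1.34) and *GNLY* (1.32) were highest and *ADGRG1* was lowest, at -1.003 (-1.25 to -0.72).

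Of 8 relatives and partners of the 6 factors, 6 had enough UMIs. None had a ratio of at least 1 or at most -1 in the *GZMB* comparison. With 2.91% and 1.27% of all genes passing these limits, a count of 0 among 6 genes says little. *ZEB1*, the relative of *ZEB2*, was at -0.82 (24.0 against 9.21 CPM, -1.02 to -0.62), and *ID3*, the relative of *ID2*, at -0.39 (-0.59 to -0.18). The E protein genes *TCF3* (-0.10) and *TCF12* (-0.10) had intervals that include 0, and *IRF1* was at 0.90 (0.83 to 0.97). *ZEB1* and *ID3* also stand in the list of naive and memory factors.

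**Figure D5:**
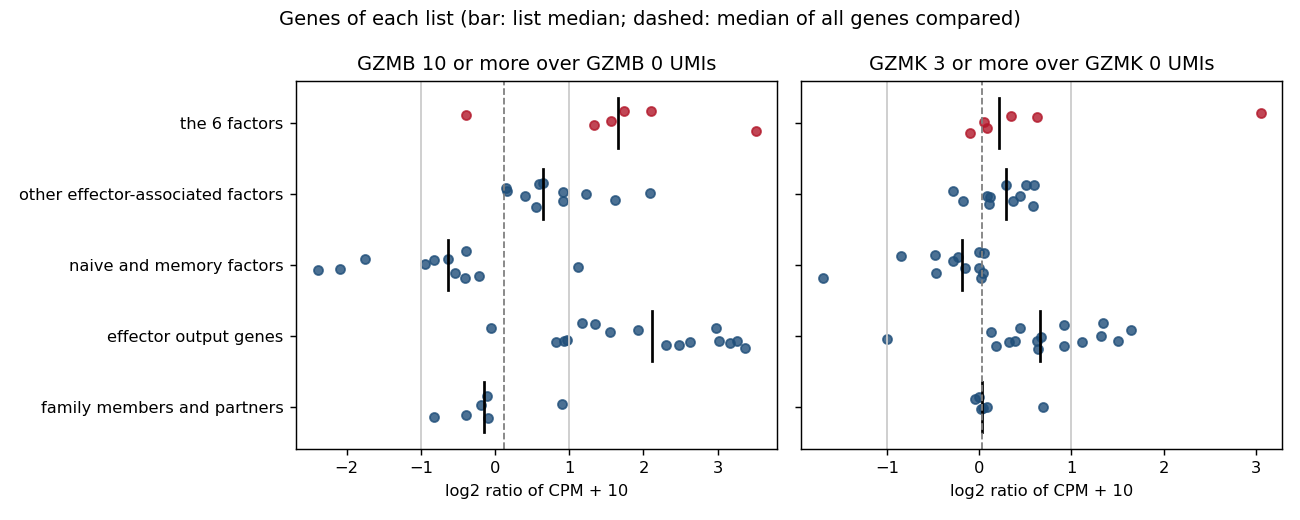
Log2 ratio of CPM + 10 for each gene of the lists, GZMB 10 or more over GZMB 0 UMIs (left) and GZMK 3 or more over GZMK 0 (right), in CD3E+ cells; black bars are list medians, the dashed line is the median of all genes compared and grey lines mark -1 and 1. The effector output genes have the highest median at left (2.12), and EOMES alone of the 6 factors passes 1 at right.

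To find genes of like pattern, the cells were divided by *GZMB*, *GZMK* and *CCR7* into groups, of which 12 held at least 50 cells, and log2(CPM + 10) was correlated over these with 7256 genes. The correlations are descriptions over 12 groups of 1 library. Since *GZMB*, *GZMK* and *CCR7* set the groups, genes that vary alike with these reach a high r. A high r thus repeats the differences by stratum given above and does not show presence in the same cell. *TBX21* and *ZEB2* were each other's nearest gene (Pearson's r = 0.998), and the next for both were *RGS9*, *LAIR1*, *ORAI1* and *CD37*, in differing order. *LAIR1*, an inhibitory collagen receptor, had r = 0.993 with *TBX21* and 0.994 with *ZEB2*. *EOMES* had r = -0.06 with *TBX21* and -0.06 with *ZEB2*, and its nearest genes were *LYAR* (0.931), *RRN3* (0.905), *PVRIG* (0.879), *CXCR4* (0.874) and *TC2N* (0.858). *PVRIG* is an inhibitory receptor of T and NK cells.

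The other 3 factors had neighbours of their own. For *HOPX* these were *LGALS3* (0.984), *BHLHE40* (0.983), *ALOX5AP*, *S100A4* and *LAMTOR2*, and for *ID2* they were *RAB27A* (0.991), *MICAL2*, *OAZ1*, *ARF6* and *C10H20orf24*. *RAB27A* is needed for the release of cytotoxic granules. For *PRDM1* they were *MAMU-E* (0.985), *RGS3*, *MAMU-A*, *MAMU-F* and *HCLS1*. The *MAMU* genes are MHC class I genes with near-identical copies, so their counts are uncertain. Among the 6, *ID2* and *TBX21* had r = 0.968 and *PRDM1* and *HOPX* 0.794, the lowest r of the pairs without *EOMES*.

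The surface tags are a readout that the choice of genes did not use, read here in the thinned cells. Median CD4 tag counts were lower in cells with *ZEB2* (314 UMIs, quartiles 250 and 397, 1037 cells) than without (409, quartiles 311 and 522), and lower with *TBX21* (327 against 397), *HOPX* (354 against 408), *PRDM1* (344 against 396) and *ID2* (370 against 411), and had similar medians with and without *EOMES* (395 and 392). The CD4 tag also went with *GZMB* itself, from a median of 432 in cells without it to 312 in cells with 10 or more. Within cells with 10 or more *GZMB* UMIs the medians with and without *ZEB2* were 302.5 and 320. The tag was also lower there with *TBX21* (302 against 317), *PRDM1* (298 against 316), *HOPX* (306 against 322) and *ID2* (308 against 322). For *ZEB2* and for each of these the quartiles with and without the factor overlap widely. With *EOMES* the CD4 tag was higher there, at 411 (29 cells, quartiles 271 and 508) against 312 without (quartiles 250 and 426.5). Without *GZMB* the CD4 tag was lower with *ZEB2* (392 against 438) and *EOMES* (398 against 439). It was not lower with *TBX21* (457 against 437), *PRDM1* (457 against 437), *HOPX* (447 against 436) or *ID2* (447 against 432). The CD8 tag was lower in cells with *EOMES* (288.5 against 350) and *PRDM1* (316 against 352), but not with *TBX21* (382 against 346). In cells without *GZMB* it was 258 with *EOMES* and 346 without, though the quartiles of both groups overlap widely (162.5 to 456 and 173 to 615). There it was also lower with *TBX21* (300 against 344) and *PRDM1* (299 against 346). At 10 or more *GZMB* UMIs it was 384 in the 29 cells with *EOMES* and 366 without. The CD8 tag also went with *GZMK* itself, with a median of 353 in cells without it and 293 with 3 or more UMIs.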

How the data were processed

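RNA and antibody tags of CD4+CD8+ DP T cells from 1 rhesus monkey were sequenced. The authors mapped the reads to Mmul_10 with Cell Ranger 3.1.0 and STAR 2.5.1b, per the labels, and deposited UMI counts as they were counted, not normalized. No annotation release is named in the sources read. A limit of 3 barcodes per gene, which 14459 genes passed, was counted but not applied to the totals, CPM or thinning. Barcodes passed with 200 to 4000 genes and mitochondrial UMIs of 20% or less, summed over 13 named genes and the 2 unnamed features with the most UMIs among them, which left 7601 cells. CD3E+ cells were divided by raw UMIs. CPM have exact Poisson intervals and shares exact Clopper-Pearson intervals. For log2 ratios of CPM + 10, the interval came from treating the count of 1 group as a binomial draw from both. Genes with at least 50 UMIs in both groups together were compared. Thinning to 2000 UMIs (seed 1) dropped 376 cells. Joint shares were called above or below the product when their interval excluded it, with the product taken as fixed. Named genes are the 6 factors, the 5 genes that divide the cells, CD3E, the listed genes, and for each factor the 5 most correlated genes with at least 200 UMIs. Members and lists were chosen with earlier results of these data known. Finer GZMB strata, GZMB crossed with GZMK, TRAV10 or CCR7, pairs by GZMK, and removal of cells with NK genes were chosen after seeing the data. The markers named beside results fall outside this rule where they are in no factor list. Other cell filters, denominators, pseudocounts and thinning depths were tried. The scripts were tested on simulated data. Tools were Python 3.11.15, numpy 2.4.6, scipy 1.17.1, pandas 2.3.3 and, for plots, matplotlib 3.10.9.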

Additional observations from a re-analysis of the deposited data

How the results depend on the processing

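The 10 main values were recomputed under other settings, which gave 103 alternative values in all. Of these, 72 stayed within the counting interval of the main value, 31 moved outside it and 0 changed sign where the main interval excluded 0. All 87 alternative log2 ratios kept their sign. With a pseudocount of 1 CPM in place of 10, *GZMB* 10 or more over 0 was 4.29 for *ZEB2*, 3.01 for *TBX21*, 1.83 for *HOPX*, 1.64 for *PRDM1* and -0.63 for *EOMES*, and *EOMES* over *GZMK* was 4.51. With 50 CPM these were 2.17, 0.99, 1.45, 0.75, -0.14 and 1.51, with *ID2* at 1.42, so *TBX21* and *PRDM1* then lie under 1. With means over cells, *EOMES* was -0.75 over *GZMB* and 3.29 over *GZMK*, and *HOPX* -0.23 over *GZMK*. The interval of *HOPX* over *GZMK* excluded 0 in thinned cells (-0.20, -0.38 to -0.03). It also excluded 0 without mitochondrial, ribosomal and effector output genes in the total (-0.14, -0.26 to -0.02). Under the other alternatives with an interval it included 0. Without the 5% deepest cells, *ZEB2* was 3.65, *HOPX* 1.85, *ID2* 1.63 and *EOMES* over *GZMK* 3.22. Without cells bearing markers of other cell types, *ZEB2* was 3.64 and *EOMES* over *GZMK* 3.20, and without cells with NK genes the latter was 3.34. With mitochondrial, ribosomal and effector output genes out of the total, *HOPX* was 1.59, *ID2* 1.38 and *EOMES* over *GZMK* 3.39. Thinning gave 3.701 for *ZEB2*, and strata from thinned *GZMB* gave 1.63 for *ID2*. The share of *GZMB*-rich cells with 3 or more factors was 54.0% without thinning, 14.0% at 1500 UMIs and 40.6% at 3000. The cause of the other shifts was not tested.

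At a median of 3656 UMIs per cell, a cell without a UMI of *TBX21*, *EOMES*, *PRDM1*, *CX3CR1* or *GZMB* is not shown to lack the transcript. All values rest on 1 animal, so variation between animals cannot be judged. Both libraries come from the same cells, so tags and RNA were read in the same cell, but with 1 animal no result comes from a test.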
